A study of Saccharomyces cerevisiae with 180 samples.

Results

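Nucleosomes between tandem genes lie in the stretch where one gene ends and the next gene on the same strand begins. A nucleosome of the study's budding yeast atlas was taken as a member when its centre fell in no protein-coding ORF of sacCer3 and when the nearest ORFs on both sides were read in the same direction. The rule gave 7080 of 66360 atlas nucleosomes (10.7%), of which 6723 had read counts and 357 had none. They lay in 2405 spacers, each running from the stop codon of the upstream gene to the start codon of the downstream gene. Divergent spacers, with a start codon at both ends, held 4434 nucleosomes in 1276 spacers. Convergent spacers, with a stop codon at both ends, held 2143 nucleosomes in 969 spacers.

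A tandem spacer is a terminator on one side and a promoter on the other. In budding yeast, trimethylation of H3 lysine 4 (K4me3) is laid down by Set1 over the beginning of transcribed genes. Trimethylation of lysine 36 (K36me3) is laid down by Set2 on elongating RNA polymerase II and is known from the middle and end of genes. Acetylation of lysine 18 (K18ac) is found at active promoters and gene starts, and trimethylation of lysine 79 (K79me3), made by Dot1, lies over gene bodies.

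The study used combinatorial indexed ChIP: nucleosomes from formaldehyde-fixed cells grown in rich medium were cut with micrococcal nuclease, pulled down with a first antibody, and pulled down again with a second antibody or carried on as Input. Input was read here as first-step material with no second pull-down. The values were raw read counts for each nucleosome in 180 libraries, with 1 library for each strain, first antibody and second step. Nothing in the labels names a replicate, so no comparison within 1 strain and 1 combination had a replicate check.

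The strains came in 2 sets. The first set, named a histone mutation library, held a strain with wild-type H3 and the substitution strains H3K4R, H3K18R and H3K36R, in which arginine replaces the lysine that carries the mark (120 libraries, with H3 and the 4 marks as first antibody). The second set, named a deletion library, held strains labelled bar1, set2 and eaf3 (60 libraries, the 4 marks only). The titles of the bar1 libraries call them WT, and bar1 served as the reference for set2 and eaf3. BAR1 encodes a secreted protease, SET2 encodes the K36 methyltransferase, and EAF3 encodes a chromodomain protein that binds methylated K36 in the Rpd3S deacetylase complex. The labels do not say how many clones each strain stands for, or whether set2 and eaf3 also lack BAR1.

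Libraries held 150 to 2693698 reads (median 110476.5), and 32 held fewer than 10000. Tandem spacers took 6.25% of all reads, from 2.49% to 12.7% of a library, and 13 libraries had fewer than 100 reads there. No pair of libraries was identical. Where a strain lacks the residue or the enzyme of a mark (K4me3 in H3K4R, K18ac in H3K18R, K36me3 in H3K36R and set2), its library was described and left out of the tests. The Input libraries of the sets stood apart in 3 of the 4 marks. For K79me3, tandem spacers took 6.76% of reads in bar1, 9.03% in set2 and 10.3% in eaf3, against 4.20% to 4.28% in the 4 strains of the first set, and the bar1 library held 10044 reads. For K36me3 they took 5.11% in bar1 and 5.02% in eaf3 against 2.99% to 3.02% in the first set, and for K4me3 8.56% to 8.97% against 6.30% to 7.06%. For K18ac the sets overlapped, with 9.47% to 11.6% and 7.92% to 9.83%. Set and strain cannot be told apart in these libraries.

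The spacers were short and held few nucleosomes. Their median length was 447 bp (quartiles 324 and 699 bp, range 24 to 12181 bp). A single nucleosome lay in 883 of them, 2 lay in 720, 3 in 287, 4 in 166 and 5 or more in 349. Another 423 tandem gaps held no nucleosome centre. Tandem spacers held 4.52 nucleosomes per kb, between divergent spacers (4.39) and convergent spacers (4.84). A non-coding gene lay in 187 of them, in 126 cases a tRNA gene, and 97 lay within 20 kb of a chromosome end. When each spacer was divided into 10 equal bins from stop codon to start codon, the atlas placed 727 nucleosomes in the first bin, 779 in the third, 588 in the sixth and 964 in the last. Nucleosomes were thus fewest just past the middle and most frequent beside the start codon.

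H3 itself leaned little to either end. In the 8 libraries pulled down with H3 first and followed by Input or H3, tandem spacers took 8.16% to 8.48% of reads. Their polarity, the log2 ratio of reads nearer the start codon to reads nearer the stop codon, ran from −0.11 to 0.03. The lowest values came from H3-then-H3 libraries, H3K18R at −0.11 ± 0.04 (counting SE) and H3K36R at −0.09 ± 0.03, whereas the 4 H3-then-Input libraries used in the tests lay between −0.01 and 0.03. Each mark was set against H3. A level is the log2 ratio of the share of a mark's Input library that fell in a place to the share of the pooled H3 libraries there, and its interval is a 95% counting interval.

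Along the spacer the marks passed from one to the other. In wild-type H3 the K4me3 level was −0.69 (−0.74 to −0.64) in the bin beside the stop codon, lowest in the third bin at −0.93, near H3 in the eighth at −0.01, and 0.69 (0.66 to 0.72) in the bin beside the start codon. K36me3 ran the other way, from −0.70 (−0.73 to −0.66) beside the stop codon to −1.92 in the eighth bin and −1.74 (−1.78 to −1.71) beside the start codon. K18ac was 0.06 in the first bin, −0.06 in the third and 0.57 in the last. K79me3 dipped in the middle, with −0.77 in the first bin, −1.21 in the sixth and −0.64 in the last. Between the first and last bins K4me3 and K36me3 thus both differed by more than 1 log2 unit, K4me3 the most.

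bar1, from the other set of libraries, gave the same order of the 2 ends. Its K4me3 level went from −0.21 (−0.26 to −0.16) in the first bin to 0.84 (0.81 to 0.88) in the last. Its K36me3 level went from −0.21 (−0.27 to −0.15) to −0.91 (−0.97 to −0.84), with the lowest value of −1.11 in the sixth bin. K18ac went from 0.36 to 0.69.

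**Figure D1:**
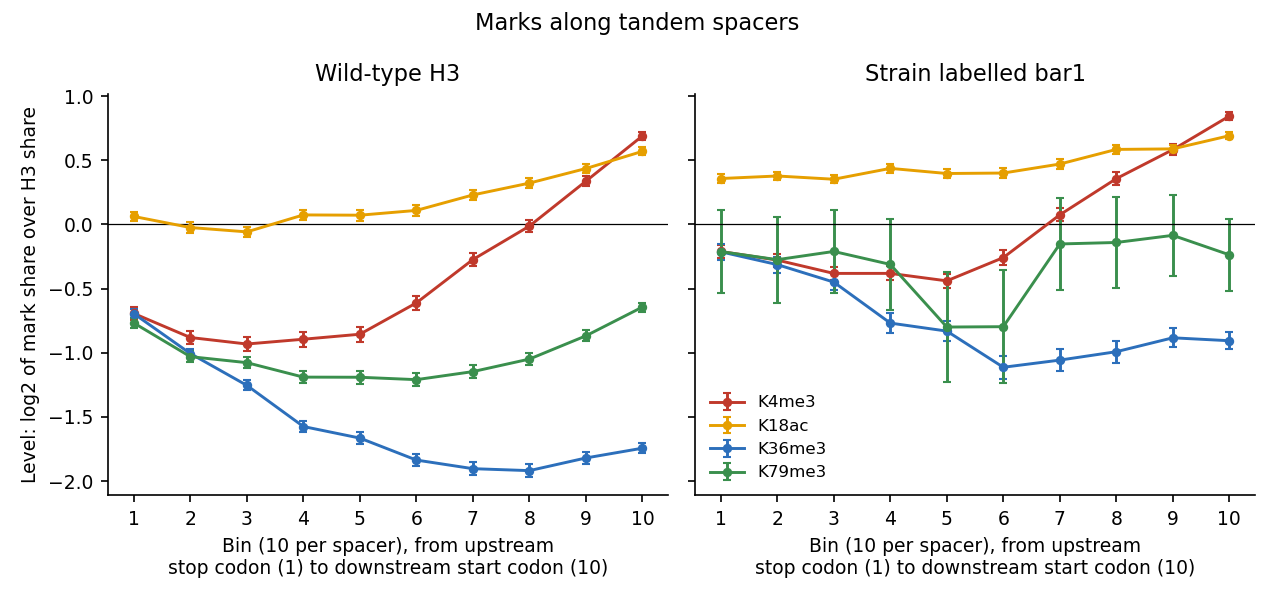
Levels of the 4 marks (log2 of the mark's share over the H3 share, y axis) in 10 equal bins of the tandem spacers from stop codon to start codon (x axis), in wild-type H3 and bar1, 1 Input library a point, with 95% counting intervals. K4me3 ends at 0.69 in wild-type H3 and 0.84 in bar1, K36me3 is highest beside the stop codon in both, and the wide K79me3 intervals in bar1 come from a library of 10044 reads.

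The absolute side of zero rests on how libraries are scaled. Against the library totals used here, edgeR's TMM factors moved all wild-type H3 levels by −0.12 for K4me3, −0.24 for K18ac, 0.65 for K36me3 and 0.34 for K79me3, and DESeq2 size factors by −0.26, −0.36, 0.71 and 0.35. Over all tandem nucleosomes the K4me3 level was −0.24 (−0.36 with TMM, −0.50 with DESeq2 factors). The K18ac level was 0.21, but −0.03 and −0.15 under those scalings, so its direction against H3 flipped. K36me3 stood at −1.46 (−0.82 and −0.75) and K79me3 at −0.98 (−0.64 and −0.63). Differences between places within a library, such as the profile and the polarity, do not move with the scaling.

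The change along the spacer was also seen by the order of the nucleosomes, summed over spacers with the same number of them. In the 629 spacers whose 2 nucleosomes were both counted, the first, a median of 89 bp from the stop codon, had a K4me3 level of −0.31 (−0.37 to −0.26) and a K36me3 level of −0.76 (−0.81 to −0.72). The second, a median of 62 bp from the start codon, had 0.73 (0.69 to 0.77) for K4me3 and −1.78 (−1.83 to −1.74) for K36me3. In the 234 spacers with 3 counted nucleosomes, K4me3 was −0.59, −0.15 and 0.66 in order from the stop codon, and K36me3 was −0.68, −1.46 and −1.66. In the 141 spacers with 4, K4me3 was −0.95, −0.79, −0.32 and 0.34. There K36me3 was −0.91, −1.67, −2.10 and −1.78, so the lowest K36me3 lay at the third nucleosome and not at the start codon. The lone nucleosome of 832 spacers, a median of 168 bp from the stop codon and 151 bp from the start codon, carried a K4me3 level of 0.51 and a K36me3 level of −1.11, between the values of the pair in 2-nucleosome spacers.

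Levels of every mark were lowest in the longest spacers. In wild-type H3 the K4me3 level was 0.56 (0.42 to 0.70) in spacers of up to 200 bp, which hold 56 counted nucleosomes, 0.50 (0.44 to 0.55) over 200 and up to 300 bp, 0.40 up to 500 bp, 0.01 up to 800 bp and −0.76 (−0.78 to −0.73) over 800 bp. Between spacers of 200 to 300 bp and those over 800 bp K18ac went from 0.68 to −0.05, K36me3 from −0.98 to −1.69 and K79me3 from −0.45 to −1.22. In spacers of up to 200 bp these 3 marks were lower than at 200 to 300 bp, at 0.58 (0.45 to 0.71) for K18ac, −1.17 (−1.31 to −1.03) for K36me3 and −0.56 (−0.70 to −0.41) for K79me3, so only K4me3 was highest in the shortest spacers. These values rest on 1 library a mark and were given no test. Libraries without the mark also fell from 200 to 300 bp to over 800 bp. The K18ac antibody went from 0.71 to 0.08 in H3K18R. The K36me3 antibody went from 0.17 to −1.31 in H3K36R and from 0.59 to −0.81 in set2. The K4me3 antibody went from 0.01 to −0.37 in H3K4R. What these libraries hold was not tested. In wild-type H3 the contrast of the ends was seen at both lengths. At 200 to 300 bp the K4me3 level was 0.92 on the start side and −0.26 on the stop side. Over 800 bp it was −0.42 and −1.18. H3 reads per nucleosome also differed with length, with 16.5 up to 200 bp, 14.9 at 200 to 300 bp and 19.0 over 800 bp. Their part in the levels was not tested.

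Set against the other spacer classes, tandem spacers of wild-type H3 stood between divergent and convergent ones in all 4 marks. In wild-type H3 the K4me3 level was 0.09 in divergent, −0.24 in tandem and −0.98 in convergent spacers. The K36me3 level was −2.10, −1.46 and −0.64 in the same order, and the K18ac level 0.37, 0.21 and −0.17. In H3K18R, which lacks the residue, the K18ac antibody gave the same order, with 0.45, 0.29 and −0.09. The K36me3 antibody gave the reverse order in H3K36R (−0.35, −0.66 and −1.31) and set2 (0.10, −0.17 and −0.74). The K4me3 antibody in H3K4R gave −0.70, −0.34 and −0.37. What these libraries hold was not tested. The comparison of classes was repeated in each strain with the mark. Its value was the log2 ratio of tandem reads to reads of the other class, minus the same ratio in H3. K4me3 was lower in tandem than in divergent spacers by a mean of −0.20 ± 0.11 (SD, 6 strains), in 6 of 6 strains, and higher than in convergent spacers by 0.48 ± 0.25, in 6 of 6. K36me3 was higher in tandem than in divergent spacers by 0.61 ± 0.15 (SD, 5 strains), in 5 of 5 strains, and lower than in convergent spacers by −0.81 ± 0.08, in 5 of 5.

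None of these 8 class differences passed an adjusted p of 0.05. By an exact two-sided sign-flip permutation test over strains, the Benjamini-Hochberg adjusted p was 0.0714 for both K4me3 differences and both K36me3 differences. The smallest unadjusted p the design can give is 0.0312 with 6 strains and 0.0625 with 5. At an unadjusted p under 0.05 there were 3 differences. K18ac was −0.07 ± 0.07 against divergent spacers (2 of 6 strains higher, adjusted exact permutation p = 0.125) and 0.18 ± 0.14 against convergent ones (5 of 6 higher, 0.0714). K79me3 was 0.11 ± 0.11 (6 of 7 strains higher) and −0.20 ± 0.17 (2 of 7 higher), both with an adjusted p of 0.0714 in the same test. The sets differed in size: K4me3 against convergent spacers was 0.68 ± 0.01 (SD, n = 3) in the first set and 0.28 ± 0.18 (n = 3) in the second, where bar1 was at 0.48, set2 at 0.19 and eaf3 at 0.15.

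**Figure D2:**
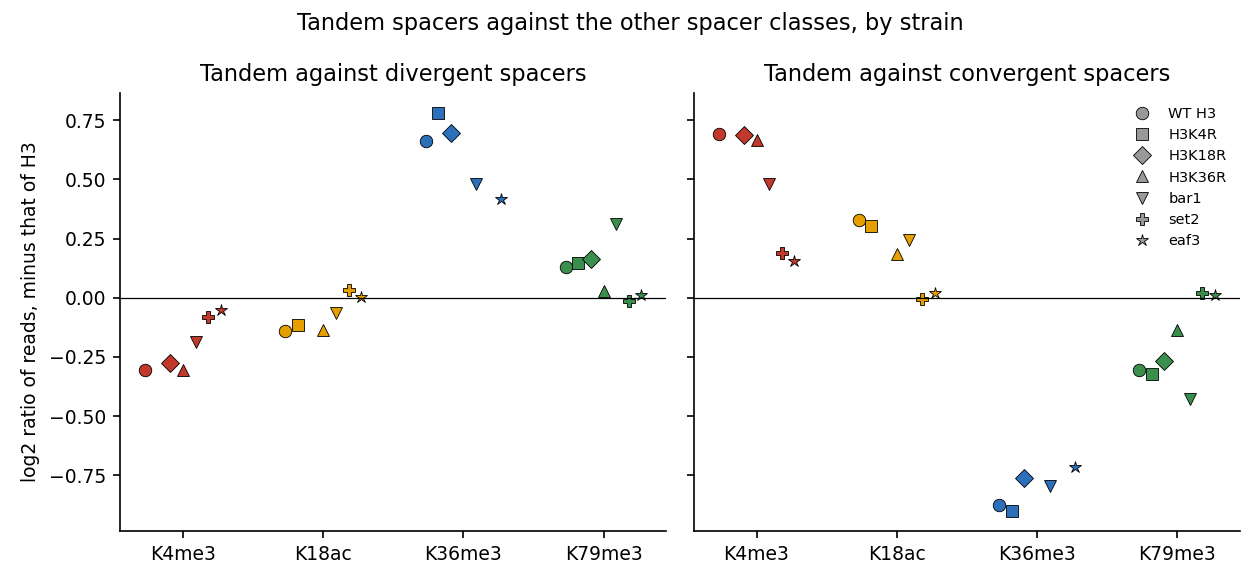
Log2 ratio of reads in tandem spacers to reads in divergent (left) or convergent spacers (right), minus the same ratio in H3 (y axis), by mark (x axis), 1 point per strain with the mark. K36me3 lies above 0 on the left and below 0 on the right in 5 of 5 strains, and K4me3 the reverse in 6 of 6, with bar1, set2 and eaf3 nearer to 0.

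The lean of each mark to one end of the spacer was read from the polarity. K4me3 polarity was 1.03 in wild-type H3, 0.88 in H3K18R, 1.05 in H3K36R, 0.77 in bar1, 0.41 in set2 and 0.36 in eaf3. The 3 strains of the first set were highest and set2 and eaf3 lowest. Less H3 polarity, the mean was 0.74 ± 0.31 (SD, 6 strains, higher in 6 of 6; adjusted exact permutation p = 0.0625). K36me3 polarity was −0.66 in wild-type H3, −0.79 in H3K4R, −0.67 in H3K18R, −0.50 in bar1 and −0.43 in eaf3, with a mean less H3 of −0.62 ± 0.15 (lower in 5 of 5; adjusted exact permutation p = 0.0781). These 2 ranges did not overlap.

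K18ac leaned to the start side more weakly, with 0.34 in wild-type H3, 0.25 in H3K4R, 0.23 in H3K36R, 0.18 in bar1, 0.05 in set2 and 0.07 in eaf3. Its mean less H3 was 0.17 ± 0.11 (higher in 6 of 6; adjusted exact permutation p = 0.0625). K79me3 was at 0.06 ± 0.07 (higher in 6 of 7; 0.0781 in the same test), a smaller difference than the −0.11 seen in 1 of the H3 libraries. No mark's polarity passed the adjusted threshold over 4 tests, and 2 had an unadjusted exact permutation p under 0.05. Within the first set the mean polarity less H3 was 0.98 ± 0.10 for K4me3 and −0.72 ± 0.08 for K36me3 (n = 3 each), and within the second it was 0.50 ± 0.22 (n = 3) and −0.48 ± 0.05 (n = 2).

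Where the mark cannot be made, the polarity lay outside the range of the other strains for K36me3 and inside it for K18ac. For K4me3 it lay below that range by its point value only. The K36me3 antibody gave 1.14 in H3K36R (434317 reads) and 0.83 in set2 (24149 reads), opposite in sign to the 5 strains with the mark. Its level in H3K36R ran from −0.97 in the bin beside the stop codon to 0.40 beside the start codon. The K4me3 library of H3K4R held 3639 reads, of which 239 were in tandem spacers, and its polarity was 0.08, below the 0.36 to 1.05 of the 6 strains with the mark. The K18ac library of H3K18R (37544 reads) had a polarity of 0.23, inside the 0.05 to 0.34 of the strains with the mark. What these libraries hold was not tested.

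**Figure D3:**
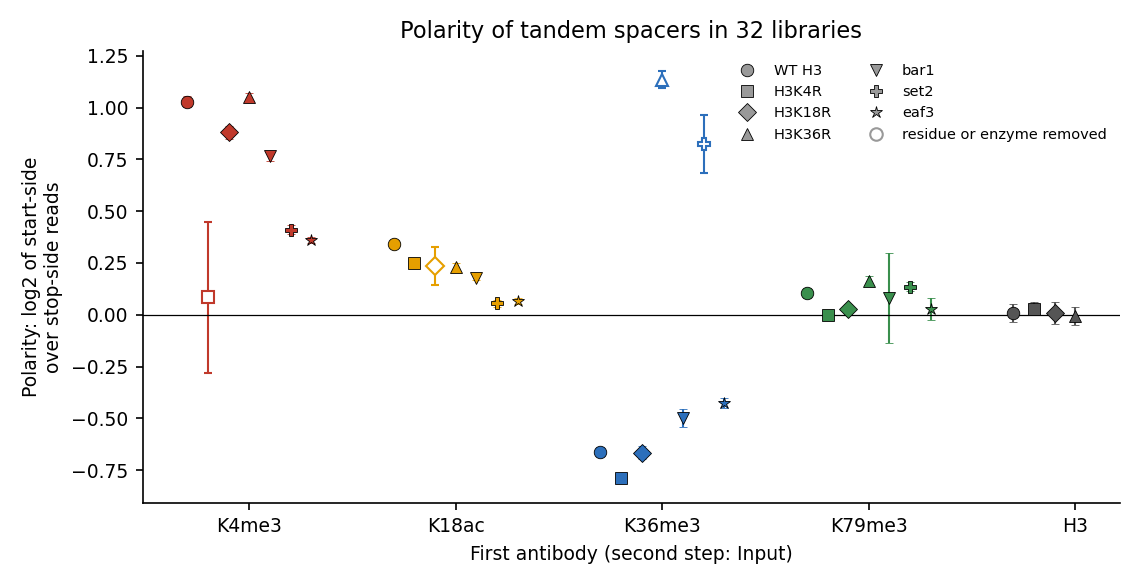
Polarity of tandem spacers (log2 of start-side over stop-side reads, y axis) in 32 Input libraries by first antibody (x axis), 1 point per strain with its 95% counting interval; open symbols are strains that lack the residue or enzyme of the mark. K4me3 lies between 0.36 and 1.05 in the strains with the mark and K36me3 between −0.79 and −0.43, whereas the open K36me3 points lie at 1.14 and 0.83.

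Single spacers were called against H3 in wild-type H3 where they held at least 30 H3 reads. This left 1074 of 2405 tandem spacers, with a median of 718.5 bp against 351 bp for the other 1331, so the counts describe mainly the longer ones. A K4me3 level at least 2-fold above H3 was found in 86 of 1074, against 10.1% of 2100 spacers of the 3 classes (8.01% of tandem spacers), and a level at least 2-fold below in 352, against 33.9% (32.8% of tandem spacers). K18ac was at least 2-fold above in 93, against 12% of all, and below in 94, against 9.90%. With TMM scaling that split was 30 above and 142 below, and with DESeq2 factors 16 and 186. K36me3 was at least 2-fold above H3 in 1 tandem spacer (background 0.0952%) and below in 809 (background 76.8%), and K79me3 was above in 0 (background 0.00%) and below in 577 (background 55.3%). These shares lay near or below the background for every mark and direction, and each spacer rests on 1 library.

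The K4me3 levels of the 1074 spacers had a median of −0.30 (quartiles −1.45 and 0.40), K18ac of 0.20 (−0.37 and 0.66), K36me3 of −1.76 (−2.66 and −1.02) and K79me3 of −1.09 (−1.69 and −0.54). The order of spacers was shared between wild-type H3 and bar1, which are separate libraries read against the same H3 pool. Spearman's rho over the 1074 spacers was 0.85 for K4me3, 0.81 for K18ac and 0.70 for K36me3. It was 0.29 for K79me3, where bar1 had 10044 reads. Within wild-type H3, K4me3 went with K18ac (rho 0.67) and K36me3 with K79me3 (0.67), whereas K18ac and K36me3 shared little (0.13). These are descriptions across spacers that share libraries and H3 counts.

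The highest K4me3 levels among spacers with 2 or more nucleosomes were those before SCH9, ARF2, COG6 and PET111. SCH9 encodes a nutrient-responsive kinase of the TORC1 pathway. The spacer between MNL1 and SCH9 (sacCer3 chromosome VIII, 508710 to 509362) held 88 K4me3 reads against 30 H3 reads, a level of 2.41 (1.82 to 3.01), and 2.21 in bar1. Of those reads 65 were on the start side and 23 on the stop side. The spacer between the glucose sensor gene RGT2 and ARF2, which encodes an ADP-ribosylation factor (chromosome IV, 215643 to 216528), had 100 K4me3 reads against 36 of H3, a level of 2.34 (2.37 in bar1). It was also high in K36me3, with 118 reads and a level of 0.85 (0.67 in bar1). Both marks lay on both sides there, with 40 and 60 K4me3 reads and 59 and 59 K36me3 reads on the stop and start side. The spacer before COG6, a Golgi tethering gene, had a level of 2.05, and the one before PET111, an activator of mitochondrial COX2 translation, had 2.00.

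The highest K36me3 level was in the 212 bp between YAP7 and YOL029C (chromosome XV, 270421 to 270632). It held 176 K36me3 reads against 47 of H3, a level of 1.04 (0.58 to 1.51), with 89 reads on the stop side and 87 on the start side, but only 9 K4me3 reads (−1.45). In bar1 its K36me3 level was 0.18. It was the only spacer at least 2-fold above H3 with library totals and the 30-read minimum; the count was 11 with TMM, 14 with DESeq2 factors and 5 with no H3 minimum. Next came the RGT2-ARF2 spacer, the spacer between BSC1 and the pheromone-regulated gene PRM7 (0.83) and that between RPS24B and MAM33 (0.69). RPS24B has a near-identical paralog, so reads at its end are uncertain. In K79me3 the spacers before COG6 (0.87) and RPO21 (0.83), the gene of the largest RNA polymerase II subunit, were highest.

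K18ac was highest before SEN2, which encodes a subunit of the tRNA splicing endonuclease. The spacer between REA1 and SEN2 (chromosome XII, 348181 to 349005) held 93 K18ac reads against 35 of H3, a level of 1.82 (1.93 in bar1), with 13 K4me3 reads (−0.52) and 27 K36me3 reads (−1.22). It holds a non-coding gene. The spacer between RPL34A and the purine-cytosine permease gene FCY2 followed at 1.78 (2.18 in bar1), and that between RPS9B and RPL21A at 1.59 (0.75 in bar1). These RPL and RPS genes have near-identical copies and are uncertain.

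The lowest levels lay near chromosome ends. The spacer between ERR1 and PAU21 on chromosome XV had 1 K4me3 read against 252 H3 reads (−6.52, interval −8.84 to −4.20), and that between SNZ2 and THI12 on chromosome XIV had 0 against 64. The spacer between ERR3 and PAU19 held 6 K36me3 reads against 285 of H3 (−6.31), and that between AYT1 and PAU18 held 16 K18ac reads against 142 (−2.69). The ERR and PAU genes are families of near-identical copies, so reads there are uncertain. Over the 86 measured spacers within 20 kb of an end, the median K4me3 level was −2.10, against −0.11 in the 829 that lay away from ends and held no non-coding gene. In the 117 measured spacers with a tRNA gene it was −0.91, with a K18ac median of 0.13 and a median length of 1357.5 bp over all 126.

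Grouped by the downstream gene, the spacers before genes that glucose represses had low levels. Of 11 tandem spacers before genes of the glucose-repressed and galactose list, 7 were measured, and their median levels were −2.31 for K4me3, −0.97 for K18ac and −2.56 for K36me3, against −0.30, 0.20 and −1.76 over all tandem spacers. K4me3 was at least 2-fold below H3 in 6 of these 7, against 32.8% of all measured tandem spacers. The median length of the 7 was 917 bp, against 718.5 bp for all 1074, and K4me3 was lower in longer spacers. The part of length was not tested. Spacers after genes of the same list (12 measured of 16) also had low medians, −1.12 for K4me3, −0.56 for K18ac and −2.66 for K36me3. Their K79me3 median of −1.06 was near the −1.09 of all tandem spacers, and their K4me3 levels ran from −5.63 to 1.28. Before meiosis and sporulation genes, which are silent in rich medium, the median K4me3 level was −2.02 in the 5 measured of 10, with a median length of 479 bp. Their K18ac median was −0.81, but their K36me3 median of −1.07 was above the −1.76 of all tandem spacers. Before ribosomal protein genes the K4me3 median was −0.01 in the 9 measured of 52, with a K18ac median of 0.93. K18ac was at least 2-fold above H3 in 3 of these 9, against 8.66% of measured tandem spacers, a call that depends on the scaling as given above. Before proteasome genes the medians were −0.38 and 0.46 (4 measured of 9), and before heat shock and stress genes −0.32 and 0.42 (6 of 12). Before glycolysis and fermentation genes 2 of 10 were measured, so no median is given. Downstream of ribosomal protein genes, where the spacer begins at their stop codon, the K4me3 median was 0.61 and the K36me3 median −1.06 in 29 measured spacers of 58. The K18ac median there was 0.81, and 9 of these 29 were at least 2-fold above H3. High K18ac was thus not limited to spacers before these genes.

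Known promoters showed how different single spacers can be. Between GAL10 and GAL7, galactose enzymes shut off in glucose (chromosome II, 275528 to 276252), 86 H3 reads stood against 9 K4me3 reads (−2.31), 25 K18ac reads (−1.34) and 13 K36me3 reads (−3.53). Before the galactose permease gene GAL2 there were 67 H3 reads and 3 K4me3 reads (−3.39, interval −4.94 to −1.84). The 3083 bp between GCS1 and the mating-type endonuclease gene HO (chromosome IV, 48032 to 51114) held 17 counted nucleosomes and 363 H3 reads. Its K4me3 level was −1.47 from 71 reads, with 53 on the stop side and 18 on the start side, where H3 had 155 and 208. K4me3 there was thus on the terminator side, unlike the sum over all tandem spacers.

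Before the G1 cyclin gene CLN3 (chromosome I, 67521 to 68715) the start side held all 63 K4me3 reads and 40 of 45 H3 reads, with a level of 1.36 (1.05 in bar1). Before the adhesin gene FLO11 (chromosome IX, 393676 to 394254), where the annotation lists a non-coding gene, there were 2 K4me3 reads against 73 of H3 (−4.00, interval −5.82 to −2.18), whereas 119 K36me3 reads gave a level of −0.15 (0.73 in bar1). K36me3 there was close to the H3 share while K4me3 was among the lowest. FLO11 belongs to a family with similar repeats, and reads there may be uncertain. Before SER3, a serine biosynthesis gene with a non-coding gene in its spacer, K4me3 was at 0.55 in wild-type H3 and −0.41 in bar1.

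Other members of this group lay between these. K4me3 was 0.83 before the arginine synthesis gene ARG1 and 0.18 before the chaperone gene SSA4. It was −0.24 before INO1, of inositol synthesis, and −0.90 before ADH1, the main fermentative alcohol dehydrogenase, whose spacer had 45 K18ac reads (0.91) and 6 K36me3 reads (−3.17). Before IMD2, near a chromosome end and with near-identical paralogs, 2 K4me3 reads stood against 47 of H3. The spacers before HIS4 and HSP104 held 1 nucleosome and 8 and 11 H3 reads, too few to be read singly. The spacers before PMA1 and TDH3 held no counted nucleosome.

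The contrast of K4me3 and K36me3 could be followed within single spacers. Between BBP1 and HFI1, which encodes a SAGA subunit (chromosome XVI, 68883 to 69484), 37 of 37 K36me3 reads lay on the stop side, whereas 21 of 29 K4me3 reads lay on the start side, with H3 at 20 and 12. Between PMT2 and LTE1 (chromosome I, 105873 to 106271), 31 of 31 K4me3 reads lay on the start side and 15 of 22 K36me3 reads on the stop side, with H3 at 20 and 17. Between REG1 and VPS54, 20 of 20 K4me3 reads were on the start side and 29 of 38 K36me3 reads on the stop side. Between BAP3 and RPC11 the figures were 22 of 23 and 34 of 39. These 4 were chosen for the contrast, which is therefore a description.

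The longest spacers were low in K4me3. The 12181 bp between FLO1 and YAR064W on chromosome I, with 66 counted nucleosomes, had a K4me3 level of −2.89 and a K36me3 level of −1.97. The 10122 bp between FLO5 and YHR212W-A on chromosome VIII had −2.73 and −2.46. Both border flocculin genes with repeats, so reads there are uncertain. The 7372 bp between SPP382 and TUS1 on chromosome XII had −0.69 and −0.33. There 332 of 366 K4me3 reads were nearer the start codon and 941 of 1554 K36me3 reads nearer the stop codon.

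Double pull-downs asked which marks shared a nucleosome, and the lean of a pair followed K4me3 and K36me3. In wild-type H3 the polarity was 1.12 for K4me3 then K18ac, 1.06 for K18ac then K4me3, 1.05 for K4me3 then K79me3 and 0.95 for K79me3 then K4me3. It was −0.49 for K36me3 then K79me3, −0.62 for K79me3 then K36me3, −0.33 for K36me3 then K18ac and −0.02 for K18ac then K36me3. When K4me3 and K36me3 were both pulled down, the polarity was 0.27 with K4me3 first and 0.29 with K36me3 first, between the other groups. K18ac with K79me3 gave 0.34 and 0.39.

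Over the 12 ordered pairs of wild-type H3, the 6 with K4me3 had a mean polarity of 0.79 ± 0.40 (SD) and the 6 without −0.12 ± 0.43. With each ordered pair as a unit, the difference of 0.91 had an exact permutation p of 0.0130 (adjusted over 8 tests p = 0.0260). The 6 pairs with K36me3 had −0.15 ± 0.39 against 0.82 ± 0.36 without, a difference of −0.97 (exact permutation p = 0.0022, the smallest 6 against 6 can give, adjusted p = 0.0173), and the groups did not overlap. bar1 gave 0.62 for K4me3 (0.66 ± 0.22 against 0.04 ± 0.29, exact permutation, adjusted p = 0.0173) and −0.59 for K36me3 (0.05 ± 0.31 against 0.64 ± 0.25, exact permutation, adjusted p = 0.0260). The 2 orders of an antibody pair gave like values in wild-type H3 for 5 of the 6 combinations, so the 12 pairs are not 12 separate units. With both orders averaged into 1 unit the differences were the same in size, 3 combinations stood against 3, and none passed: the exact permutation p was 0.2 for K4me3 and 0.1 for K36me3 in wild-type H3, 0.1 and 0.2 in bar1, and the adjusted p was 0.4 in each. The smallest p that 3 against 3 can give is 0.1, so the 4 calls rest on counting the orders separately. For K18ac and K79me3 no call was made either way: 0.18 and −0.13 in wild-type H3 and 0.11 and −0.14 in bar1, each with an exact permutation adjusted p of 0.719. Pairs with the same first antibody also share first-step material. Without libraries under 10000 reads, 8 pairs of bar1 were left and the adjusted exact permutation p was 0.0952 for K4me3 and 0.171 for K36me3. No wild-type H3 pair is that shallow, and its K4me3 value and p did not move, but the adjustment over all 8 tests took it to 0.0519. Over the 5 alternatives run, the adjusted exact permutation p ran up to 0.4 for each of these 4 differences, from 0.0260 and 0.0173 for K4me3 and K36me3 in wild-type H3 and from 0.0173 and 0.0231 in bar1.

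**Figure D4:**
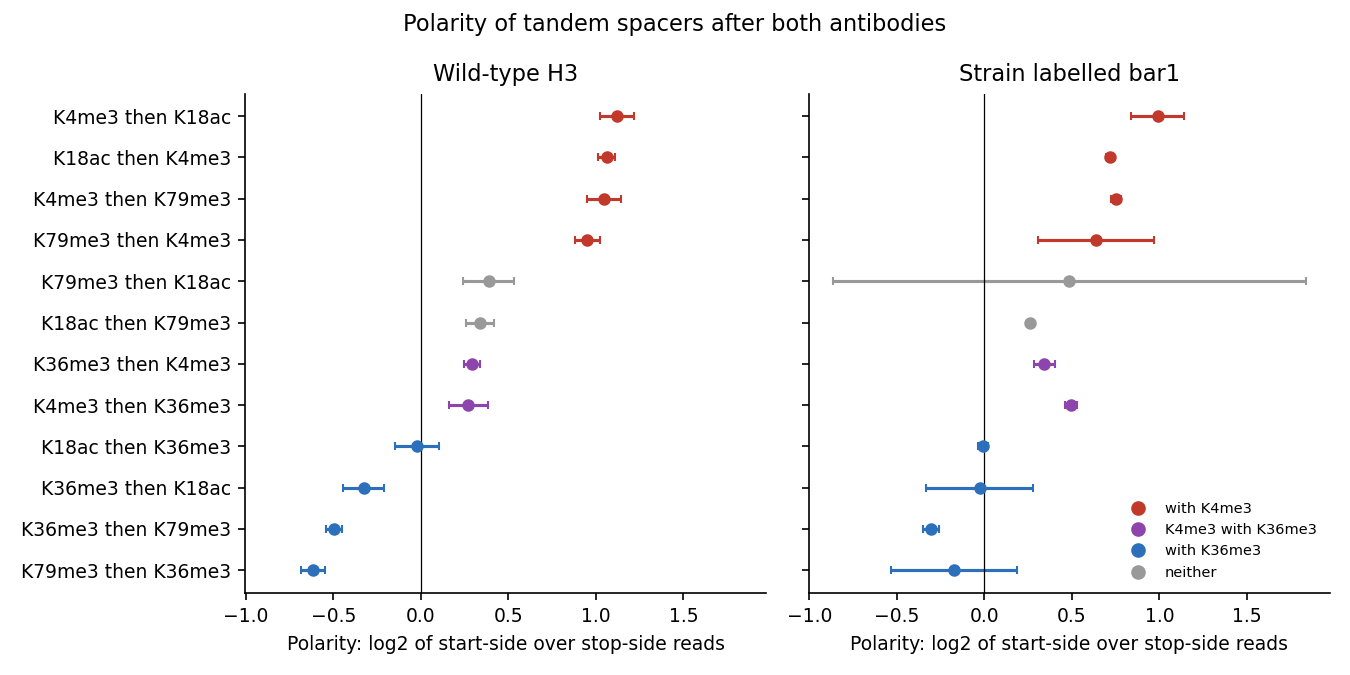
Polarity of tandem spacers (log2 of start-side over stop-side reads, x axis) for the 12 ordered antibody pairs (y axis) in wild-type H3 and bar1, 1 library a point with its 95% counting interval. Pairs with K4me3 but not K36me3 lie at 0.95 to 1.12 in wild-type H3, pairs with K36me3 but not K4me3 at −0.62 to −0.02, and the 2 orders of K4me3 with K36me3 at 0.27 and 0.29.

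The second antibody's yield on each side was set against the first-step Input, as the log2 ratio of shares. After K36me3 in wild-type H3, the K4me3 antibody gave 0.86 on the start side and −0.10 on the stop side of tandem spacers. After K4me3, the K36me3 antibody gave −1.24 on the start side and −0.48 on the stop side. After K18ac, K4me3 gave 0.09 on the start side and −0.63 on the stop side, and after K79me3 it gave 0.57 and −0.28. The yield of K18ac after K4me3 was 0.24 and 0.15, and in bar1 0.24 and 0.02. In bar1 the K4me3 yield after K36me3 was 0.60 and −0.24, and the K36me3 yield after K4me3 was −0.70 and −0.43. Read along the spacer, K4me3 then K36me3 was closest to H3 at both ends, with −0.76 beside the stop codon, −1.97 in the sixth bin and −0.53 beside the start codon in wild-type H3. K36me3 then K4me3 had −0.77, −1.61 and −0.50 at the same places. K4me3 then K18ac instead went from −0.56 to 0.98.

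The changed strains were compared with their own reference over the same 12 pairs. For no strain did the change of polarity pass a test between pairs with and without a retained mark. Of 16 exact permutation tests over ordered pairs, none passed and none had an unadjusted p under 0.05. The smallest adjusted p was 0.515, or 0.8 with both orders as 1 unit. In H3K4R, H3K18R, H3K36R and set2, both groups of each test also held pairs with the antibody of the absent mark. Over all 12 pairs the SD of the H3K36R changes was 0.66, against 0.07 in the 6 without the K36me3 antibody. In those strains the tests therefore cannot decide whether the retained marks changed. In H3K4R, polarity was lower in 12 of 12 pairs, by −0.52 ± 0.35 on average, and by −0.21 ± 0.07 in the 6 pairs without the K4me3 antibody. In H3K18R it was lower in 11 of 12 pairs (−0.20 ± 0.37), and in 6 of 6 pairs without the K18ac antibody (−0.17 ± 0.12). The exception at 0.71 was K4me3 then K18ac, a library of 1029 reads with 65 in tandem spacers.

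H3K36R split by antibody. Its 6 pairs with the K36me3 antibody were higher by 1.13 ± 0.41 (6 of 6, range 0.44 to 1.58), and the 6 without it differed from wild-type H3 by −0.02 ± 0.07. In set2 the 6 pairs with that antibody were higher by 0.62 ± 0.43 (6 of 6), and the 6 without by −0.22 ± 0.20 (1 of 6 higher). Since the mark is absent in both strains, the first of each pair of values describes the pull-down and was not tested. In eaf3, which keeps the methyltransferase, polarity was lower in 10 of 12 pairs (−0.17 ± 0.20). It was lower in 6 of 6 pairs with K4me3 (−0.22 ± 0.13) and in 6 of 6 with K18ac (−0.25 ± 0.20). With K36me3 it was lower in 4 of 6 (−0.12 ± 0.23), and with K79me3 in 4 of 6 (−0.08 ± 0.20). These groups overlap. The bar1 libraries with K79me3 first held 4281 (then K4me3), 150 (then K18ac) and 7206 reads (then K36me3). bar1 and wild-type H3 themselves differed by 0.01 ± 0.25 over the 12 pairs (range −0.35 to 0.44). That SD was wider than the 0.20 of the eaf3 changes and narrower than the 0.54 of the set2 changes over all 12 pairs. It was wider than the 0.20 of the 6 set2 pairs without the K36me3 antibody. These SDs compare spreads only and do not measure the mean changes. bar1 and wild-type H3 also come from different sets of libraries.

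**Figure D5:**
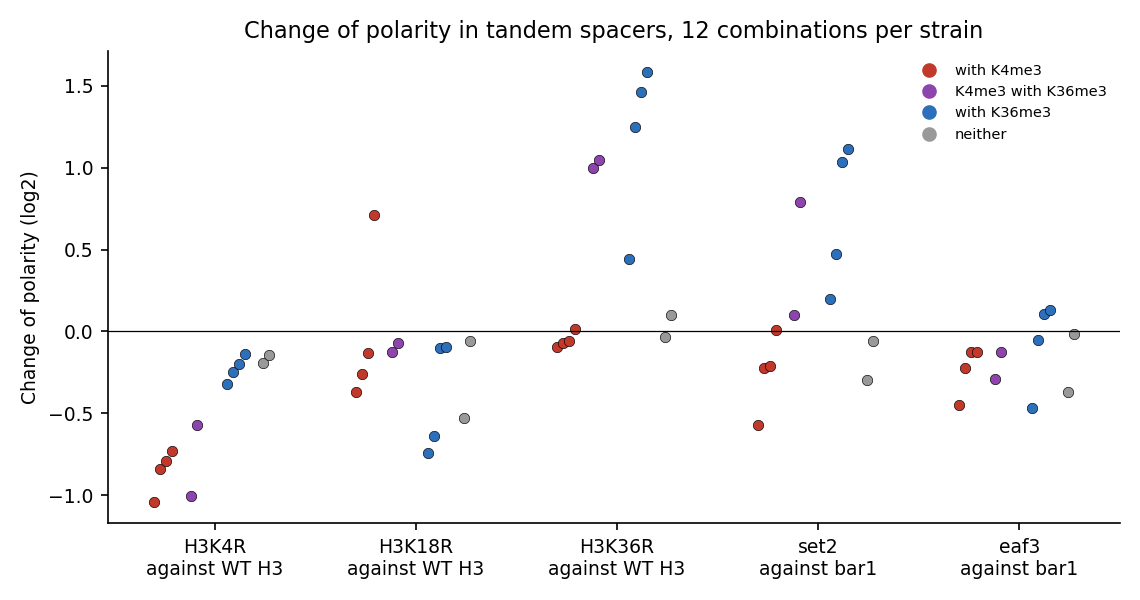
Change of polarity in tandem spacers against the reference strain (log2, y axis) for the 12 ordered pairs in each changed strain (x axis), 1 library pair a point, coloured by whether the pair holds K4me3, K36me3, both or neither. H3K36R pairs with K36me3 lie at 0.44 to 1.58 while those without it lie within −0.10 and 0.10, and H3K4R lies below 0 in 12 of 12.

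For the share of reads in tandem spacers relative to the other spacers, no strain passed an exact sign-flip permutation test over the 12 pairs. The mean log2 change was −0.02 ± 0.27 in H3K4R, −0.03 ± 0.18 in H3K18R, −0.05 ± 0.09 in H3K36R, −0.07 ± 0.42 in set2 and −0.08 ± 0.43 in eaf3, and the smallest adjusted p over 5 tests was 0.510. At an unadjusted p under 0.05 there were 0. In set2 and eaf3 the pair K79me3 then K18ac was the lowest, at −1.33 and −1.40, against a bar1 library of 150 reads.

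Single spacers in the first-step libraries of set2 and eaf3 were compared with bar1 where both libraries together held at least 50 reads, with no replicate. K4me3 was at least 2-fold higher in 33 of 933 tandem spacers in set2, against 3.87% of all spacers, and lower in 19, against 2.52%. In eaf3 it was higher in 59 of 1508 (background 4.07%) and lower in 35 (background 2.57%). The split there was 78 and 18 with TMM and 80 and 15 with DESeq2 factors. K18ac was lower in 67 of 1840 in set2 (background 3.48%) and 29 of 1932 in eaf3 (background 1.48%), and higher in 3 (background 0.377%) and 2 (background 0.465%). With TMM scaling K18ac was lower in 23 and 14 and higher in 5 and 6, in set2 and eaf3, and with DESeq2 factors lower in 23 and 17 and higher in 5 and 4. The tandem shares of lower K18ac and of both K4me3 directions were near the background, and the few spacers with higher K18ac were not tested against it.

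Median K18ac over tandem spacers was −0.31 in set2 and −0.26 in eaf3 relative to bar1, against −0.38 and −0.33 in divergent and −0.02 and 0.03 in convergent spacers. With TMM scaling the tandem medians were −0.18 and −0.12. Median K4me3 was −0.09 in set2 and −0.14 in eaf3 over tandem spacers, −0.19 and −0.26 over divergent and 0.23 and 0.23 over convergent ones. The tandem K4me3 medians were −0.03 and −0.05 with TMM and −0.01 and −0.05 with DESeq2 factors. set2 and eaf3 share the bar1 library, so these values stand side by side only.

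The spacers past 2-fold in both strains, which share the bar1 library, numbered 15 up and 5 down of 932 for K4me3 (backgrounds 1.80% and 0.674% of all spacers; 1.61% and 0.536% of tandem spacers). For K18ac they numbered 0 up and 5 down of 1816 (backgrounds 0.0589% and 0.324%; 0.275% of tandem spacers were down). These shares were near the background. The highest K4me3 ratio was between KCC4 and YCL021W-A (chromosome III, 82276 to 83619), with 8 reads in bar1, 63 in set2 (2.37) and 115 in eaf3 (2.24). Those between BRP1 and YGL006W-A (2.07 and 1.46), YOR072W and YOR072W-B (1.85 and 1.55) and YDR341C and FCF1, an rRNA processing gene (1.59 and 1.68), followed. The annotation lists a non-coding gene in 3 of these 4, all but the BRP1 spacer. Their wild-type H3 K4me3 levels were below H3, from −2.24 to −0.91. The lowest ratios were between LRO1 and NRM1, a co-repressor of G1 transcription (52 reads in bar1, 28 in set2, 66 in the deeper eaf3 library, −1.41 and −1.19), and between RPP1 and GIC1 (−1.20 and −1.07). For K18ac the lowest ratios were before the MAP kinase gene KSS1 (−1.78 and −1.01) and the magnesium transporter gene MRS2 (−1.08 and −1.34).

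In the substitution strains K18ac was at least 2-fold higher in 3 and lower in 1 of 1409 tandem spacers of H3K4R (backgrounds 0.455% and 0.266%). K4me3 was higher in 2 and lower in 3 of 526 in H3K18R (0.450% and 0.991%). In H3K36R K4me3 was higher in 5 and lower in 31 of 907 (0.345% and 3.80%), and K18ac higher in 2 and lower in 34 of 1362 (0.118% and 2.40%). Median changes over tandem spacers were 0.03 for K18ac in H3K4R, −0.03 for K4me3 in H3K18R, and −0.15 for K4me3 and −0.29 for K18ac in H3K36R. Those 2 medians were −0.07 and −0.18 with TMM scaling. The 34 lower K18ac spacers of H3K36R were 21 with DESeq2 factors.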

How the data were processed

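Counts, whole numbers of reads per nucleosome and library and not normalized, were used as the authors deposited them. Reads were aligned with Bowtie2 to sacCer3, per the submitters' processing notes. The sources used here give neither its version nor how reads were assigned to nucleosomes or duplicates handled. If duplicates were kept, counting intervals and floors, which cover counting error only, are too narrow. The atlas gives nucleosomes of 151 bp, and 65032 had counts.

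Groups were taken from the labels. ORFs (6002) came from RefSeq's sacCer3 gene table, with strand read from the letter W or C in each systematic name. Counts were summed over spacers, sides (nearer codon) and 10 equal bins, with 0.5 reads added to each sum. H3 was the same strain's H3-first Input in the first set and those 4 libraries summed for the second; levels used 8 H3 libraries pooled (1391712 reads). Tests were exact sign-flip or permutation tests with Benjamini-Hochberg adjustment within each family at 0.05, computed with Python 3.11.15, numpy 2.4.6, pandas 2.3.3 and scipy 1.17.1. They were also run on simulated data with independent units. Those data lack the shared orders and first-step material of the pairs, so they say nothing of that dependence. The p-values measure the spread between strains or pairs; pairs were also tested with both orders of an antibody pair averaged into 1 unit, an alternative chosen after seeing the data. edgeR 4.0.16 and DESeq2 1.42.0 in R 4.3.3 gave scaling alternatives only; with 1 library per group no count model was fitted. The members, lists and tests were chosen with earlier results of these data known. Named spacers are those before a list of much studied genes, the 4 highest and 2 lowest levels of each mark (2 or more nucleosomes, 30 H3 reads), the 4 largest increases and 2 largest decreases shared by set2 and eaf3 (50 reads), the 4 largest contrasts of the sides, and the 3 longest; the text gives most of them.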

Additional observations from a re-analysis of the deposited data

Results flagged for a closer look

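In the 6 pairs with the K36me3 antibody, every pair of H3K36R was higher in polarity than wild-type H3 and every pair of H3K4R was lower, and the mean changes differed by 1.54 (log2). The same held for H3K36R against H3K18R, with a difference of 1.43. These strains moved in opposite directions in 6 of 6 pairs each. They share the wild-type H3 libraries as reference, and the difference between them was not tested. H3K36R lacks the residue that the K36me3 antibody names. H3K4R lacks the residue of its pairs with the K4me3 antibody, libraries of 695 and 3596 reads, which fell most. Its other changes lay between −0.32 and −0.14. H3K18R lacks the residue of its pairs with the K18ac antibody, libraries of 1212 and 2543 reads, which fell most. Its other changes lay between −0.13 and −0.07. Both differences of means include these shallow pairs.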

How the results depend on the processing

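No paired analysis was possible because every group is a single library, so groups share fewer than 2 replicate numbers. Class differences and mark polarities kept their direction in all 42 and 21 alternatives run. None passed in any of them, which says nothing of stability where the design could not pass (3 strains with the first set only, 5 for K36me3). The alternatives were spacers of 200 to 1000 bp, only the outer parts of the spacer, no top 1% of nucleosomes, no spacers with non-coding genes or near ends, pooled H3, the first set only, and K79me3 without the second set (the last, leaving spacers out of level counts and averaging the orders of a pair were chosen after seeing the data). With both orders of an antibody pair as 1 unit, pair polarity stayed at 0.91 (K4me3) and −0.97 (K36me3) in wild-type H3 and 0.62 and −0.59 in bar1, and none passed, since 3 against 3 cannot. Without libraries under 10000 reads, pair polarity in bar1 was 0.67 for K4me3 and −0.55 for K36me3, and neither passed with 8 pairs left. The K4me3 value in wild-type H3, which loses no library, was still 0.91, with an adjusted exact permutation p of 0.0519 through the adjustment with the bar1 tests. The H3K4R change for K18ac pairs became −0.16, the H3K18R changes −0.11 (K4me3) and 0.21 (K36me3), the set2 change for K79me3 0.22, and the tandem share 0.011 in H3K4R and 0.014 in H3K18R, each opposite in sign to its value with all libraries. The H3K4R K18ac change was −0.11 with the middle left out and the H3K18R K79me3 change 0.021 without non-coding and end spacers, also opposite. None of these values passes with or without the setting, and the cause was not tested.

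Counts of spacers moved with the filter, the scaling and the reads added. With no H3 minimum (2405 spacers), K4me3 was above H3 in 491 and below in 575, K18ac above in 565, K36me3 above in 5 and below in 1621, and K79me3 above in 13 and below in 997. With at least 60 H3 reads (470 spacers) the counts were 10 and 213 for K4me3, 15 and 60 for K18ac, 0 and 393 for K36me3, and 313 below for K79me3. With H3 of wild-type H3 only (74 spacers) they were 0 and 55, 0 and 20, 0 and 57, and 53 below. Without non-coding and end spacers (829) K4me3 was below in 223 and K18ac below in 56. With DESeq2 factors K4me3 was above in 33, K18ac above in 16 and below in 186, K36me3 above in 14 and K79me3 above in 5; with TMM K18ac was 30 and 142, K36me3 above in 11 and K79me3 above in 5. Changes with DESeq2 factors were K18ac up in 6 and down in 0 (H3K4R), down in 21 (H3K36R), up in 5 and down in 23 (set2), up in 4 and down in 17 (eaf3), and K4me3 down in 15 (eaf3); with TMM they were K18ac up in 5 and down in 0 (H3K4R), up in 5 and down in 23 (set2), up in 6 and down in 14 (eaf3), and K4me3 down in 18 (eaf3). With 5 reads added K36me3 was above in 0, and changes were K18ac up in 0 and down in 0 (H3K4R), K4me3 up in 1 and down in 1 (H3K18R), K4me3 up in 2 and K18ac up in 1 (H3K36R), K4me3 up in 17 and K18ac down in 17 (set2), K4me3 up in 23 and down in 53 and K18ac up in 1 and down in 6 (eaf3). With 1 read added K18ac was down in 0 (H3K4R), K4me3 up in 3 and K18ac up in 1 (H3K36R). The other 65 counts of spacers were within 1.5 times of their main value.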
